A study of Homo sapiens with 24 samples.

Results

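The genes described here are 44 interferon-stimulated genes, chosen by symbol from a list of genes that cells switch on in response to interferon, and followed in the human breast cancer cell line SKBR3 after knockdown of 3 different proteins. On the arrays, 43 of the 44 have a named probe and 37 were bright enough to be tested, out of 12463 genes tested and 20046 genes with a probe. OAS2, OASL, MX2, IFI27, SAMHD1 and TRIM22 were not tested, because their intensities ran from 87.34 to 109.4 and only OASL passed the detection floor of 106, on 2 arrays. STAT2 has no named probe, so its expression was not analysed here.

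SKBR3 is a line with an amplified HER2 (ERBB2) gene. The 4 groups, 6 arrays each, are control cells and cells with knockdown of PMCA2 (the plasma membrane calcium pump encoded by ATP2B2), of NHERF1 (a PDZ scaffold protein) or of HER2 (a receptor tyrosine kinase). Per the labels' protocols, lentiviral particles carrying short hairpin RNAs were added to the cultures for 48 h. The labels name neither a hairpin for the control nor separate cultures behind the 6 arrays of a group, so the p-values rest on array-to-array spread that may be technical only. Each group filled 3 arrays on each of 2 chips and kept its own positions on both, so position and group cannot be told apart.

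Interferons bind receptors at the cell surface, whose JAK kinases phosphorylate STAT proteins. Phosphorylated STAT proteins join IRF9 and bind the interferon-stimulated response element (ISRE) in promoters, or bind the GAS element without it. The genes they switch on encode proteins that sense viral RNA, block virus entry, translation and budding, or attach the ubiquitin-like protein ISG15 to other proteins, and breast cancer cells can express some of them without infection.

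Promoters were available from RefSeq (GRCh38.p14) for 36 of the 44 genes, STAT2 among them, as 44 windows of 300 bases running from 250 before to 50 after the start of the gene. A core of the ISRE, searched on both strands as GAAA, any 2 bases and GAAA again, was present in at least 1 window of 25 of the 36 genes, or 69.4%, and of 1195 of all 27305 genes, or 4.38%. By window it was in 29 of 44, or 65.9%, and in 1255 of all 35116, or 3.57%. A core of GAS, searched as TTC, any 3 bases and GAA, was present for 10 of the 36 genes, or 27.8%, and 2560 of the 27305, or 9.38%. The letters of both motifs can overlap, since both hold GAA. Such matches describe the letters in the window and are not evidence of binding. The promoters of 7 genes with high or opposed changes are shown from 160 bases before to 10 after the start, written 5′ to 3′ on the strand of the gene, with the ISRE matches in capitals (overlapping matches run together). IFITM1, IFITM3, ISG15, HERC5 and PARP14 were higher than control in all 3 knockdowns, and OAS3 and ISG20 were lower in all 3. The windows lie at chr11:313880-314049 (IFITM1, plus strand), chr11:320851-321020 (IFITM3, minus strand), chr1:1013337-1013506 (ISG15, plus strand), chr4:88456959-88457128 (HERC5, plus strand), chr3:122680679-122680848 (PARP14, plus strand), chr12:112938314-112938483 (OAS3, plus strand) and chr15:88638856-88639025 (ISG20, plus strand).
IFITM1: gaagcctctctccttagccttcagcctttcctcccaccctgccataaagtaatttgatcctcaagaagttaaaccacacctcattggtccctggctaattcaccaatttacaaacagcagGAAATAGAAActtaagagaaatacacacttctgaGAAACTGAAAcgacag
IFITM3: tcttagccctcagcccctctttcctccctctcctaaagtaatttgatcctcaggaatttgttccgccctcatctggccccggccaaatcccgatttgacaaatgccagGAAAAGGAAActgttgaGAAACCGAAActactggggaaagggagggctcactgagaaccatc
ISG15: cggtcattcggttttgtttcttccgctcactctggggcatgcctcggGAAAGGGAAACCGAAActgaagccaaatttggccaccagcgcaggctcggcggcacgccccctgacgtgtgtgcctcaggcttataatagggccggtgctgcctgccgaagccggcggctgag
HERC5: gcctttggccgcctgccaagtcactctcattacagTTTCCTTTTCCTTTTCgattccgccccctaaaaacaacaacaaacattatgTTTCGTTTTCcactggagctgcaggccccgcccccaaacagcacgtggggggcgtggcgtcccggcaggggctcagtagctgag
PARP14: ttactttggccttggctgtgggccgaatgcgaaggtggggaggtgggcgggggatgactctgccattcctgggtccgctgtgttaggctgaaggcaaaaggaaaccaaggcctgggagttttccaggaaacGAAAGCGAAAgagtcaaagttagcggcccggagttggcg
OAS3: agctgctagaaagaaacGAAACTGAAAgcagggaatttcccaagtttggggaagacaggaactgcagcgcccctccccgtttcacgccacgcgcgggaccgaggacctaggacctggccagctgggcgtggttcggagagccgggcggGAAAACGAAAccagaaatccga
ISG20: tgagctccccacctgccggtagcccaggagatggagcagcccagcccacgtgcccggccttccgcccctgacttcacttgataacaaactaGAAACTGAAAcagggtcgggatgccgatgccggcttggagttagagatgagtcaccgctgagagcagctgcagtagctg
HERC5 held 3 matches in its window, IFITM1, IFITM3, ISG15 and OAS3 held 2 each, and PARP14 and ISG20 held 1 each. These 7 were picked and all carry the motif, those that rose and those that fell alike. HERC6, TRIM25 and IRF9, higher in all 3 knockdowns, and OAS1, lower in all 3, held no match and are not shown. Only the spacing of 2 bases was searched. The windows of OAS1 and TRIM25 hold GAAA, any 1 base and GAAA again, on one or the other strand. A gene without a match is therefore not shown to lack the element.

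The knockdown arrays stood apart from control over all genes. Log2 values correlated at a median of 0.996 within a group, 0.973 between different knockdowns and 0.918 between control and a knockdown. ERBB2 fell in each, with log2 changes of -0.97, -1.67 and -0.91 after PMCA2, NHERF1 and HER2 knockdown, so the HER2 knockdown was not the group with the lowest ERBB2. NHERF1 changed by -0.89, -3.63 and -0.67, with intensities (lowest, median and highest of 6 arrays) of 3844, 4021 and 4188 in control and 377, 405 and 416 after its own knockdown. ATP2B2 was at the floor in every group apart from 1 array, so the PMCA2 label could not be checked. Of 15 luminal markers of SKBR3, all 15 were above the floor on every control array, whereas SPDEF, SCGB2A2 and AZGP1 were above it on no knockdown array. Their summed intensity was 60350 to 64150 in control, 31690 to 32670 after PMCA2, 24300 to 24960 after NHERF1 and 29380 to 31100 after HER2 knockdown. The knockdown arrays therefore lack 3 of the 15 markers of the labelled line. In each knockdown group, 11 of the 15 were above the floor on every array. Of 24 trophoblast markers, 11, 2, 9 and 10 were above the floor on no array in control, PMCA2, NHERF1 and HER2 knockdown, and their sums were 1957 to 2193, 10470 to 11090, 6716 to 7417 and 4093 to 4477. Leukocyte marker sums (9 genes) were 574.1 to 622.3, 488 to 574.5, 757.3 to 854.6 and 463.9 to 569.8 in the same order. Of the 9, 3, 2, 2 and 3 were above the floor on every array of the group. CD3E was above it on no array of any group and PTPRC on none after any knockdown. Fibroblast marker sums (9 genes) were 185 to 192.7, 215.2 to 243, 261.5 to 283.5 and 292.1 to 327.6. Of the 9, 0, 1, 2 and 1 were above the floor on every array of the group, and LUM, PDGFRA, FAP and THY1 passed it on no array. Endothelial sums (5 genes) were 197.3 to 231.8, 235.6 to 270.2, 235.4 to 265.8 and 193.9 to 209.6, with 2, 3, 3 and 2 above the floor on every array. These marker levels move with each comparison against control below, and their part in the results was not tested.

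Values are given on 2 scales. Intensities are the authors' normalized linear values, whose background was not subtracted. Log2 changes come from background-corrected values, tested with limma on all 24 arrays and adjusted with Benjamini-Hochberg over all 12463 genes, and are given ± SE with 6 arrays per group. A gene was called at an adjusted p under 0.05. Where a group lay at or under the floor, the fold is a lower bound, computed against the lowest intensity measured above the floor. Without background correction, 121 of the 165 called log2 changes shrank by more than 1.5 times and none changed sign, so fold sizes rest on that correction.

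Interferon-stimulated genes changed in both directions in every knockdown. After PMCA2 knockdown, 25 of 37 rose and 7 fell, so that 86.5% were called against a background of 66.8% of all genes (33.8% higher and 33.0% lower). After NHERF1 knockdown, 22 rose and 8 fell, or 81.1% against a background of 66.6% (35.7% higher and 30.9% lower). After HER2 knockdown, 18 rose and 11 fell, or 78.4% against 67.1% (35.3% higher and 31.8% lower). The median log2 change of the 37 genes was 0.47, 0.35 and 0.13 in the 3 comparisons, where that of all genes was 0.00, 0.02 and 0.02. With genes at the floor set to their bounds, the medians became 0.30, 0.23 and 0.00. At least 2-fold changes were called for 9 higher and 3 lower genes after PMCA2 knockdown (32.4%, background 13.3% with 6.84% higher and 6.41% lower), 10 and 3 after NHERF1 knockdown (35.1%, background 12.8% with 6.06% and 6.76%), and 6 and 4 after HER2 knockdown (27%, background 13.0% with 6.21% and 6.80%). DDX60, DTX3L, IFIT1, IFIT3 and PARP9 were above the floor on no control array and entered the test through knockdown arrays above it (DDX60 and DTX3L through those of PMCA2 and NHERF1 knockdown only). HERC5, PARP14 and IFIT5 passed the floor on 1 control array, and HERC6, MX1 and IFI44 on 2. IFIT2 and RIGI passed it on 3, and IFITM1, BST2 and SAMD9 on 5. A test asked for at least 6 arrays above the floor, so all of these also needed knockdown arrays. The counts, shares and medians are therefore descriptions of the genes that could be measured.

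The 3 comparisons share the control arrays, so a gene called in all of them has not been found 3 times over. Called higher in each were IFITM1, IFITM2, IFITM3, IFIT1, IFIT2, IFIT3, ISG15, HERC5, HERC6, TRIM25, IRF9, PARP9, PARP14 and IFI6. Called lower in each were OAS1, OAS3, USP18, IFIH1 and ISG20. The share of all genes called with the same sign in all 3 is not given here, so such agreement cannot be read as particular to these genes. GBP1, IFI35 and LGALS3BP were called higher after PMCA2 and NHERF1 and lower after HER2 knockdown, IRF1 higher after PMCA2 and lower after HER2, IRF7 higher after PMCA2 and lower after NHERF1, and SAMD9 higher after PMCA2 and lower after both others. IFI44L was called in no comparison with control.

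**Figure D1:**
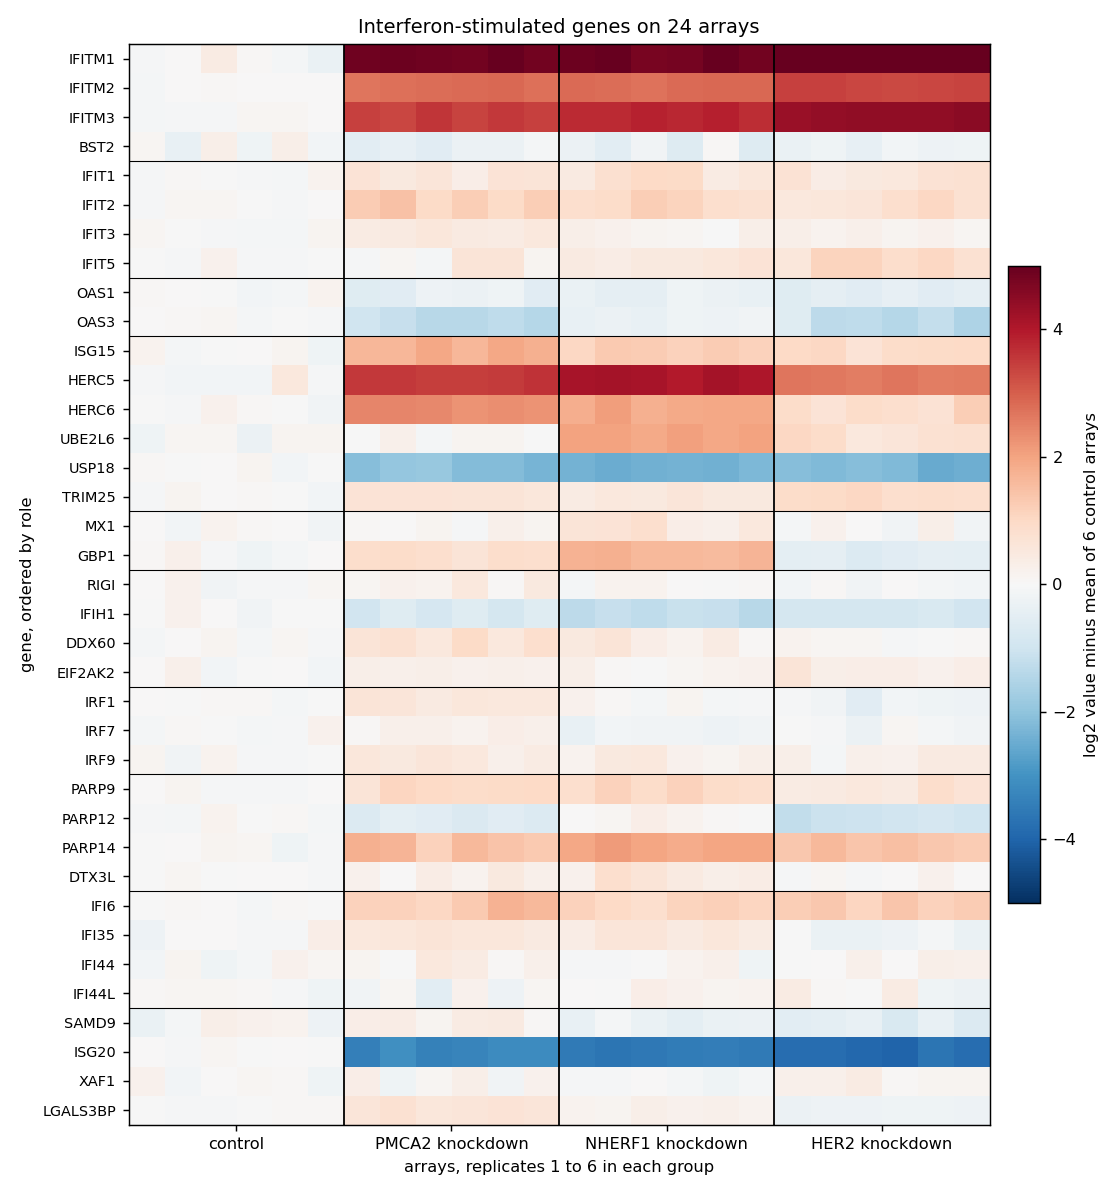
Log2 value of each of the 37 tested genes (rows, by role) on each of the 24 arrays (columns, 6 per group), minus the mean of the 6 control arrays; red is higher and blue lower, and colours end at 5 on either side. The IFITM1, IFITM2, IFITM3 and HERC5 rows are red and the ISG20 and USP18 rows blue on all 18 knockdown arrays.

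The membrane restriction factors IFITM1, IFITM2 and IFITM3, which block fusion of viruses with cell membranes, were among the genes that rose in every knockdown. IFITM3 intensities (lowest, median and highest) were 530.3, 549 and 592 in control, 4869.6, 5112 and 5742 after PMCA2, 6238, 6469 and 7033 after NHERF1 and 9496, 10402 and 10823 after HER2 knockdown. No group overlapped another, and HER2 knockdown arrays were the brightest. IFITM3 was higher than control by 10.9-fold (log2 3.44 ± 0.05, adjusted p = 2.78e-28), 13.7-fold (log2 3.77 ± 0.05) and 21.4-fold (log2 4.42 ± 0.05). IFITM1 was close to the floor in control, at 102 to 119.8, and reached 891 to 979, 862 to 997 and 1167 to 1404, log2 changes of 4.87, 4.88 and 5.42. IFITM2 was bright in every group, at 1215 to 1347 in control and 12140 to 13224 after HER2 knockdown, and changed by 2.78, 2.83 and 3.37. The 3 genes are close copies of one another and each has 1 probe, so how the signal divides among them is uncertain. BST2 (tetherin), which holds budding virus at the cell surface, did not rise with them. It fell by at least 1.18-fold and at least 1.15-fold after PMCA2 and NHERF1 knockdown and was not called after HER2 knockdown (log2 -0.26 ± 0.12), and every group's range overlapped the control's. With the arrays of the second chip alone, the BST2 call was lost in both (adjusted p = 0.33 and 0.063).

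Genes of the ISG15 conjugation system moved in opposed directions. ISG15 itself, the ubiquitin-like modifier, had intensities of 135, 143 and 150.1 in control, 275, 285 and 314 after PMCA2, 209, 225 and 232 after NHERF1 and 181, 203 and 207 after HER2 knockdown. All knockdown arrays were above all control arrays, PMCA2 knockdown arrays highest. Its log2 changes were 1.77 ± 0.07 (3.41-fold, adjusted p = 2.21e-18), 1.20 ± 0.07 (2.3-fold) and 0.94 ± 0.07 (1.92-fold). HERC5, the ligase that attaches ISG15 to newly made proteins, was at the floor on 5 of 6 control arrays, with intensities of 93.4, 95.9 and 112. It reached 310.3, 321 and 342 after PMCA2, 413, 447 and 458 after NHERF1 and 205, 211 and 216 after HER2 knockdown, which are increases of at least 9.28-fold, at least 13.9-fold and at least 4.98-fold (adjusted p = 5.09e-24, 1.48e-25 and 4.3e-21). The 4 groups did not overlap, and the order was control, HER2, PMCA2 and NHERF1 knockdown. Without background correction the HERC5 ratios were 3.29, 4.51 and 2.15. HERC6, a related ligase known as the main ISG15 ligase of mouse cells, ran from 100.03 to 109.8 in control and rose by at least 4.82-fold, at least 3.56-fold and at least 1.75-fold.

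USP18, the protease that takes ISG15 off proteins and also restrains signalling of the type I receptor, fell in all 3 knockdowns. Its intensities were 214, 226 and 241 in control, 110.3, 114 and 120.3 after PMCA2, 107, 109 and 112 after NHERF1 and 107, 113 and 115 after HER2 knockdown. Knockdown arrays lay just above the floor and far under the lowest control array. The decreases were 4.32-fold, 5.21-fold and 4.8-fold (log2 -2.11 ± 0.073, -2.38 ± 0.073 and -2.26 ± 0.073, adjusted p = 1.09e-19, 7.05e-21 and 2.26e-20). UBE2L6, the conjugating enzyme for ISG15, followed yet another pattern, with intensities of 113, 123 and 125 in control, 118, 122 and 128 after PMCA2, 226, 238 and 243 after NHERF1 and 138, 148 and 161 after HER2 knockdown. PMCA2 knockdown overlapped control (log2 0.07 ± 0.082, not called), whereas NHERF1 and HER2 knockdown did not, with changes of 1.99 ± 0.082 and 0.77 ± 0.082. A second UBE2L6 probe, above the floor on 17 arrays, changed by only 0.34 after NHERF1 knockdown and by 0.20 after HER2 knockdown, so the size depends on the probe. TRIM25, a ligase that activates the sensor RIG-I, rose by 0.66, 0.49 and 0.92, without overlap with control.

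**Figure D2:**
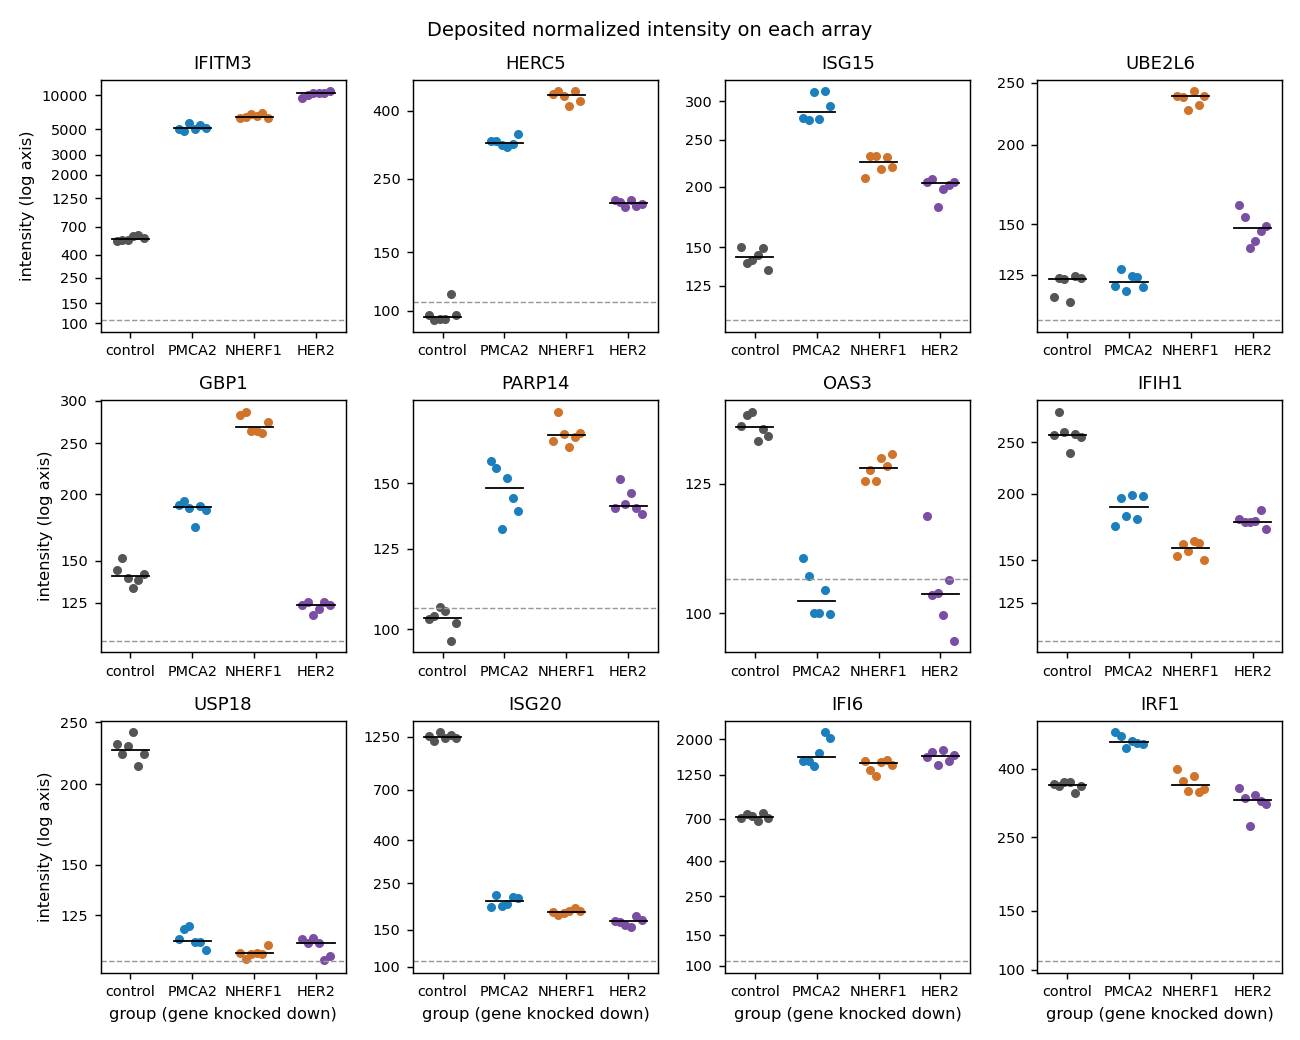
Deposited normalized intensity (log axes, own range in each panel) of 12 of the genes on each array, by group; the line is the median of 6 arrays and the dashed line the floor of 106. HERC5 and PARP14 lie near the floor in control and above it in every knockdown, while USP18, ISG20 and IFIH1 lie highest in control.

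IFIT proteins bind viral RNA and block its translation. IFIT2, with intensities of 105, 106 and 109 in control, 131, 142 and 151 after PMCA2, 125, 128 and 142 after NHERF1 and 118, 123 and 134 after HER2 knockdown, rose in all 3. Every knockdown array was above every control array, while the knockdowns overlapped one another. Log2 changes were 1.19 ± 0.092, 0.95 ± 0.092 and 0.72 ± 0.092 (adjusted p = 6.16e-12, 6.03e-10 and 1.01e-07). IFIT1 was above the floor on no control array and on all 18 knockdown arrays, which are increases of at least 1.28-fold, at least 1.4-fold and at least 1.31-fold. A second IFIT1 probe, above the floor on only 2 arrays, gave log2 changes of 0.00, 0.13 and -0.03. IFIT3 passed the floor on no control array and rose by at least 1.2-fold after PMCA2 knockdown. It was also called higher after NHERF1 and HER2 knockdown, but with 3 of 6 arrays above the floor in each no fold could be given. Those arrays overlapped control, and both calls were lost on the second chip alone (adjusted p = 0.2 and 0.15). IFIT5 was called after NHERF1 (at least 1.29-fold higher) and HER2 knockdown (at least 1.71-fold higher) and not after PMCA2 knockdown (log2 0.23 ± 0.11).

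The oligoadenylate synthetases, which make the messenger that activates RNase L on double-stranded RNA, were lower in all 3 knockdowns where they could be measured. OAS3 intensities were 134, 138 and 142 in control, 99.9, 102 and 109.9 after PMCA2, 126, 129 and 132 after NHERF1 and 95.4, 103 and 118 after HER2 knockdown. All control arrays were above all knockdown arrays, and PMCA2 and HER2 knockdown reached the floor. OAS3 was lower by at least 2.19-fold after PMCA2 (adjusted p = 1.17e-11), by 1.2-fold after NHERF1 (log2 -0.27 ± 0.1, adjusted p = 0.021) and by at least 2.11-fold after HER2 knockdown (adjusted p = 2.62e-11). The NHERF1 call was lost on the second chip alone (log2 -0.15, adjusted p = 0.141). OAS1 fell, with log2 changes of -0.41, -0.35 and -0.50 and with ranges of 116 to 125 in control and 107 to 111 after HER2 knockdown. Another OAS1 probe, above the floor on 8 arrays, gave -0.81, -0.62 and -0.79, and one above it on 6 arrays gave -0.83, -0.77 and -0.93. A further OAS1 probe, above it on no array, gave 0.02, 0.05 and -0.00.

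Both GTPases tested differed between knockdowns. GBP1, a guanylate-binding protein best known as a target of interferon gamma, had intensities of 133, 140.4 and 152 in control, 174, 189 and 194 after PMCA2, 261, 268 and 286 after NHERF1 and 119, 124 and 126 after HER2 knockdown. No 2 groups overlapped, and control lay between HER2 and PMCA2 knockdown. Log2 changes from control were 0.83 ± 0.064, 1.67 ± 0.064 and -0.52 ± 0.064 (adjusted p = 5.92e-12, 1.08e-18 and 4.88e-08), and a second probe, above the floor on 20 of 24 arrays, gave 0.85, 1.96 and -0.45. MX1, a dynamin-like GTPase that traps viral nucleocapsids, was above the floor on 2 of 6 control arrays. It rose by at least 1.38-fold after NHERF1 knockdown, with all 6 arrays above the floor, and was called in neither of the others (log2 0.09 and 0.01).

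Of the RNA sensors, IFIH1 (MDA5) fell and the others were higher or not called. IFIH1 intensities were 239, 258 and 285 in control, 174, 189 and 199 after PMCA2, 150.3, 158 and 163 after NHERF1 and 172, 177 and 187 after HER2 knockdown. Control arrays did not overlap any knockdown, and NHERF1 knockdown arrays were lowest. The decreases were 1.67-fold, 2.34-fold and 1.84-fold (log2 -0.74 ± 0.066, -1.23 ± 0.066 and -0.88 ± 0.066, adjusted p = 1.08e-10, 2.45e-15 and 3.61e-12). RIGI, the sensor of RNA ends, was called only after PMCA2 knockdown (log2 0.26 ± 0.081), a call lost on the first chip alone (adjusted p = 0.297). DDX60, a helicase that works with RIG-I, passed the floor on no control array and no HER2 knockdown array, and rose by at least 1.31-fold after PMCA2 and by at least 1.03-fold after NHERF1 knockdown. The NHERF1 knockdown arrays of DDX60 overlapped control, and that call was lost on the second chip alone (adjusted p = 0.0747). EIF2AK2 (PKR), the kinase that stops translation on double-stranded RNA, was bright in every group, at 365 to 450.5 in control, and rose by 0.25 after PMCA2 and 0.36 after HER2 knockdown with overlapping arrays, and the PMCA2 call was lost on the first chip alone (adjusted p = 0.0931).

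Among the 44 genes, the tested transcription factors IRF1, IRF7 and IRF9 changed by less than 2-fold. IRF1, which activates interferon gamma targets, had intensities of 339.5, 358 and 367 in control, 462, 482 and 516 after PMCA2, 342, 359 and 400.4 after NHERF1 and 269, 324 and 349.7 after HER2 knockdown. Only PMCA2 knockdown arrays were all above control, and NHERF1 and HER2 knockdown arrays overlapped it. Log2 changes were 0.55 ± 0.067 (adjusted p = 3.5e-08), 0.03 ± 0.067 (not called, adjusted p = 0.709) and -0.22 ± 0.067 (adjusted p = 0.0044). The HER2 call was lost on the first chip alone (adjusted p = 0.0653). IRF7, the factor that amplifies interferon alpha production, had 161, 165 and 179.5 in control, 169, 183 and 189.8 after PMCA2, 148, 157 and 159 after NHERF1 and 151, 162 and 172 after HER2 knockdown. Its small changes of 0.22 ± 0.064 and -0.21 ± 0.064 after PMCA2 and NHERF1 knockdown had opposite signs and were lost on 1 or both chips alone (adjusted p = 0.0838 for PMCA2 and 0.101 and 0.0507 for NHERF1). A second IRF7 probe changed by -0.05 after PMCA2 knockdown, and with the mean of its probes that call was lost (adjusted p = 0.313). IRF9, which joins STAT proteins at the ISRE, rose by 0.48, 0.31 and 0.26, clear of control only after PMCA2 knockdown, and its HER2 call was lost on the first chip alone (adjusted p = 0.538).

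PARP14 and PARP12 add single ADP-ribose groups to proteins, and PARP9 works in a complex with the ubiquitin ligase DTX3L. PARP14 intensities were 96.8, 103 and 106 in control, 132, 148 and 159.8 after PMCA2, 166, 171 and 183 after NHERF1 and 138, 141 and 152 after HER2 knockdown. Control arrays were at the floor apart from 1, and NHERF1 knockdown arrays were all above the other groups. PARP14 rose by at least 2.58-fold, at least 3.6-fold and at least 2.43-fold (adjusted p = 7.76e-15, 1.58e-17 and 2.91e-14). PARP9 passed the floor on no control array and rose by at least 1.54-fold, at least 1.59-fold and at least 1.2-fold. A second PARP9 probe, above the floor on 6 arrays, gave smaller log2 changes of 0.23, 0.18 and 0.14. DTX3L passed the floor on no control array. It rose by at least 1.17-fold after NHERF1 knockdown and was not called after HER2 knockdown. After PMCA2 knockdown it was called higher with 3 of 6 arrays above the floor, a change whose size could not be measured, and that call was lost on the first chip alone (adjusted p = 0.252). PARP12 went the other way, with log2 changes of -0.62 ± 0.065 after PMCA2 and -1.02 ± 0.065 after HER2 knockdown and no call after NHERF1 knockdown (log2 0.11 ± 0.065).

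IFI6, a membrane protein of the endoplasmic reticulum that restricts flaviviruses, was bright in every group. Its intensities were 683, 716 and 751 in control, 1405, 1594 and 2206 after PMCA2, 1227, 1456 and 1533 after NHERF1 and 1422, 1609.8 and 1737 after HER2 knockdown. All knockdown arrays were above all control arrays and the knockdowns overlapped one another. IFI6 was 2.53-fold, 2.09-fold and 2.37-fold higher (log2 1.34 ± 0.09, 1.06 ± 0.09 and 1.24 ± 0.09, adjusted p = 3.01e-13, 4.08e-11 and 1.56e-12). A second IFI6 probe, above the floor on all 24 arrays, gave larger changes of 3.24, 2.48 and 2.06. IFI35, a partner of the protein NMI, had 140.2, 149.6 and 168 in control, 175, 184 and 188 after PMCA2, 171, 180.1 and 188 after NHERF1 and 136, 138 and 149 after HER2 knockdown. PMCA2 and NHERF1 knockdown arrays were all above control, at log2 changes of 0.55 ± 0.072 and 0.51 ± 0.072, and HER2 knockdown was lower with overlap (log2 -0.23 ± 0.072, lost on the first chip alone with adjusted p = 0.204). IFI44 stayed near the floor, and its call after PMCA2 knockdown (at least 1.05-fold higher, adjusted p = 0.0394) was lost on each chip alone and without background correction (adjusted p = 0.0554).

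ISG20, an exonuclease that degrades single-stranded RNA, had the lowest log2 changes of the 37 genes. Its intensities were 1192, 1251 and 1317 in control, 192, 206 and 219.5 after PMCA2, 175, 183 and 189.5 after NHERF1 and 155, 164 and 175 after HER2 knockdown. Every control array was far brighter than every knockdown array. ISG20 fell by 9.47-fold, 11.6-fold and 14.3-fold (log2 -3.24 ± 0.06, -3.54 ± 0.06 and -3.84 ± 0.06, adjusted p = 5.85e-26, 8.38e-27 and 1.34e-27). LGALS3BP, a secreted galectin-binding glycoprotein, had 1239, 1269 and 1344 in control, 1846, 1910.5 and 2131 after PMCA2, 1414, 1453 and 1538 after NHERF1 and 1068, 1081 and 1127 after HER2 knockdown. No 2 groups overlapped, and its changes were 0.64 ± 0.041, 0.21 ± 0.041 and -0.25 ± 0.041 (adjusted p = 1.35e-13, 7.43e-05 and 6.4e-06). SAMD9, an antiviral and growth-restraining protein, had 105, 114 and 119.7 in control, 115, 121 and 124 after PMCA2, 102, 106 and 111 after NHERF1 and 91, 101 and 105 after HER2 knockdown. It was higher by 0.30 ± 0.099 after PMCA2 knockdown, at least 1.21-fold lower after NHERF1 and lower by at least 1.25-fold after HER2 knockdown, where it passed the floor on no array. The PMCA2 and NHERF1 calls of SAMD9 were each lost on 1 chip alone (adjusted p = 0.124 and 0.18). XAF1, which promotes cell death by antagonising XIAP, was called only after HER2 knockdown (log2 0.21 ± 0.087), a call lost on each chip alone (adjusted p = 0.0657 and 0.362).

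**Figure D3:**
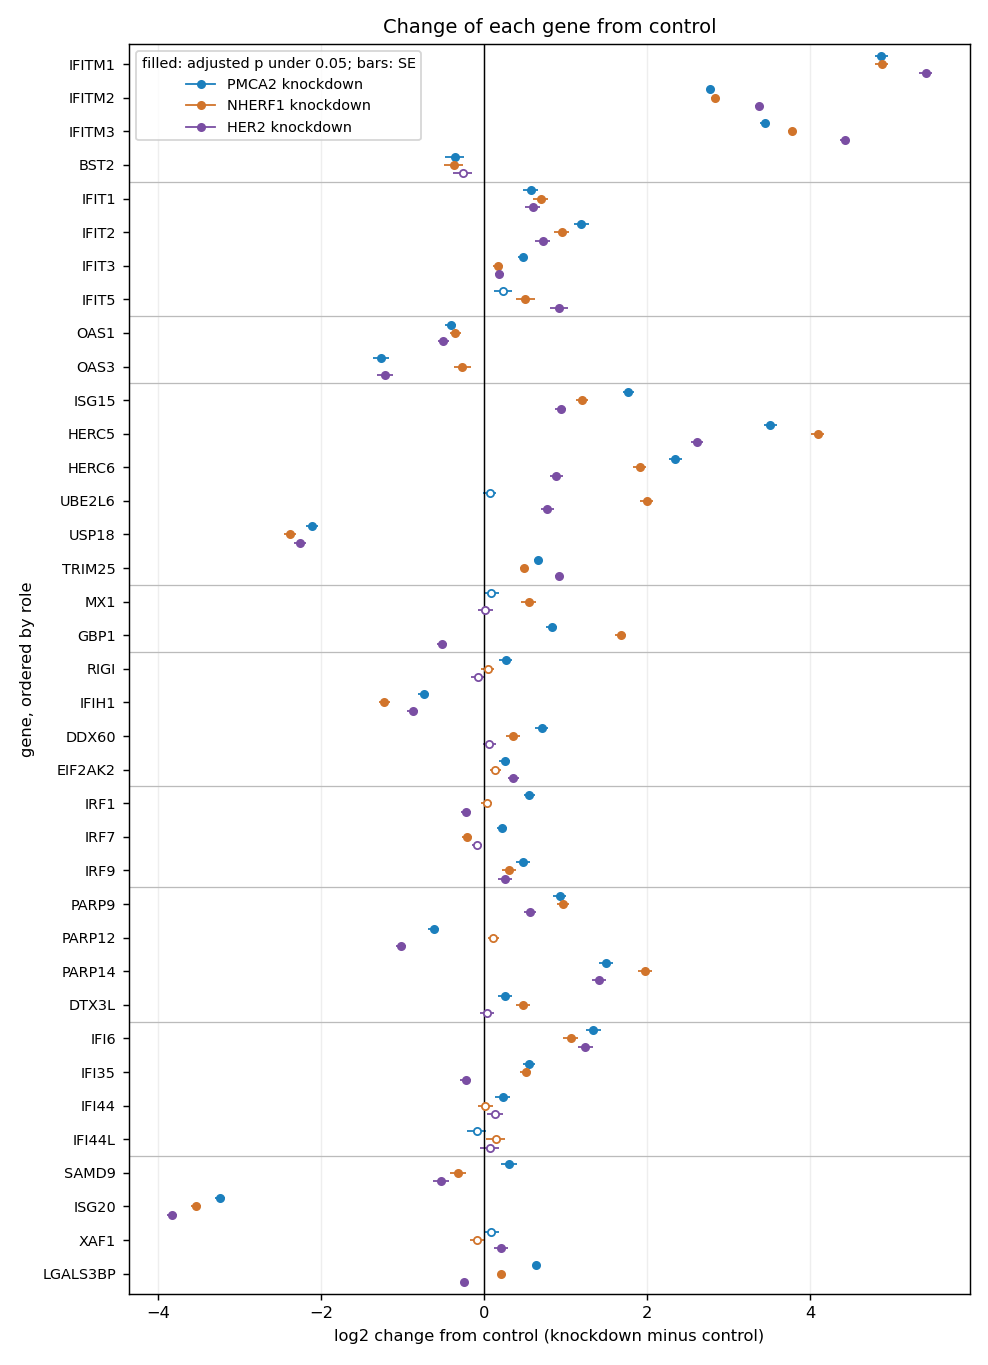
Log2 change from control (x axis, knockdown minus control) of the 37 genes (y axis, by role) in the 3 knockdowns; bars are SE and filled points have an adjusted p under 0.05. IFITM1 reaches 5.42 and ISG20 -3.84 after HER2 knockdown, and GBP1 has opposite signs in different knockdowns. Points for genes at the floor in 1 group, such as HERC5, are fitted values and not bounds.

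Setting the knockdowns against each other leaves the control mean out of the difference. The control arrays still entered the shared estimate of spread, the choice of probe and the filter. For PMCA2 against HER2 knockdown, 18 genes were higher and 6 lower, 64.9% of the 37 against a background of 55.3% (26.4% higher and 28.9% lower). For NHERF1 against HER2 knockdown, 17 were higher and 8 lower, 67.6% against 52.2% (26.8% and 25.4%). For PMCA2 against NHERF1 knockdown, 15 were higher and 10 lower, 67.6% against 57.2% (27.3% and 30.0%). The median log2 differences of the 37 genes were 0.15, 0.15 and 0.11, or 0.13, 0.08 and 0.05 with genes at the floor set to their bounds, where those of all genes were -0.01, 0.01 and -0.01. Trophoblast markers also differed between the knockdowns, with median log2 differences of 1.42, 0.35 and 1.23 over the 19 tested. With markers at the floor set to their bounds these medians were 1.06, 0.20 and 0.99. Of the 19, 13, 4 and 12 were called at least 2-fold different, and the part of these markers in these results was not tested.

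Changes of at least 2-fold between knockdowns were called for HERC6 and GBP1 in the PMCA2 with HER2 comparison (5.41%, background 4.62% with 2.89% higher and 1.73% lower), and for HERC5, HERC6, UBE2L6, GBP1 and PARP12 in the NHERF1 with HER2 comparison (13.5%, background 3.48% with 2.01% and 1.48%), all higher than after HER2 knockdown. In the PMCA2 with NHERF1 comparison only UBE2L6 passed that size (2.7%, background 4.26% with 2.62% higher and 1.64% lower). GBP1 differed by 1.35 ± 0.064, 2.19 ± 0.064 and -0.84 ± 0.064 (adjusted p = 5.01e-16, 1.98e-20 and 9.65e-12). HERC5 differed by 0.90 ± 0.078, 1.48 ± 0.078 and -0.58 ± 0.078, and HERC6 by 1.46 ± 0.078, 1.02 ± 0.078 and 0.44 ± 0.078. HERC5 was thus highest after NHERF1 knockdown and HERC6 after PMCA2 knockdown. UBE2L6 was lower after PMCA2 than after NHERF1 knockdown by 3.81-fold (log2 -1.93 ± 0.082), while its second probe gave -0.46. PARP12 was 2.2-fold higher after NHERF1 than after HER2 knockdown, and OAS3 at least 1.75-fold higher.

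The IFITM genes were highest after HER2 knockdown. IFITM3 differed by -0.98 ± 0.05 after PMCA2 and -0.65 ± 0.05 after NHERF1 from HER2 knockdown on the log2 scale, and IFITM1 and IFITM2 by -0.55 and -0.59 after PMCA2 knockdown. TRIM25 was also lower than after HER2 knockdown, at -0.26 and -0.43. ISG15 was 1.78-fold higher after PMCA2 than after HER2 knockdown, IRF1 1.71-fold and LGALS3BP 1.84-fold (adjusted p = 8.03e-11, 1.22e-10 and 3.4e-16). IFI35 was higher after both PMCA2 and NHERF1 than after HER2 knockdown, by 0.78 and 0.74, and did not differ detectably between those 2 (log2 0.04 ± 0.072). For IFITM1 and IFITM2, the PMCA2 with NHERF1 difference was -0.00 ± 0.08 and -0.05 ± 0.042, neither of them called.

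**Figure D4:**
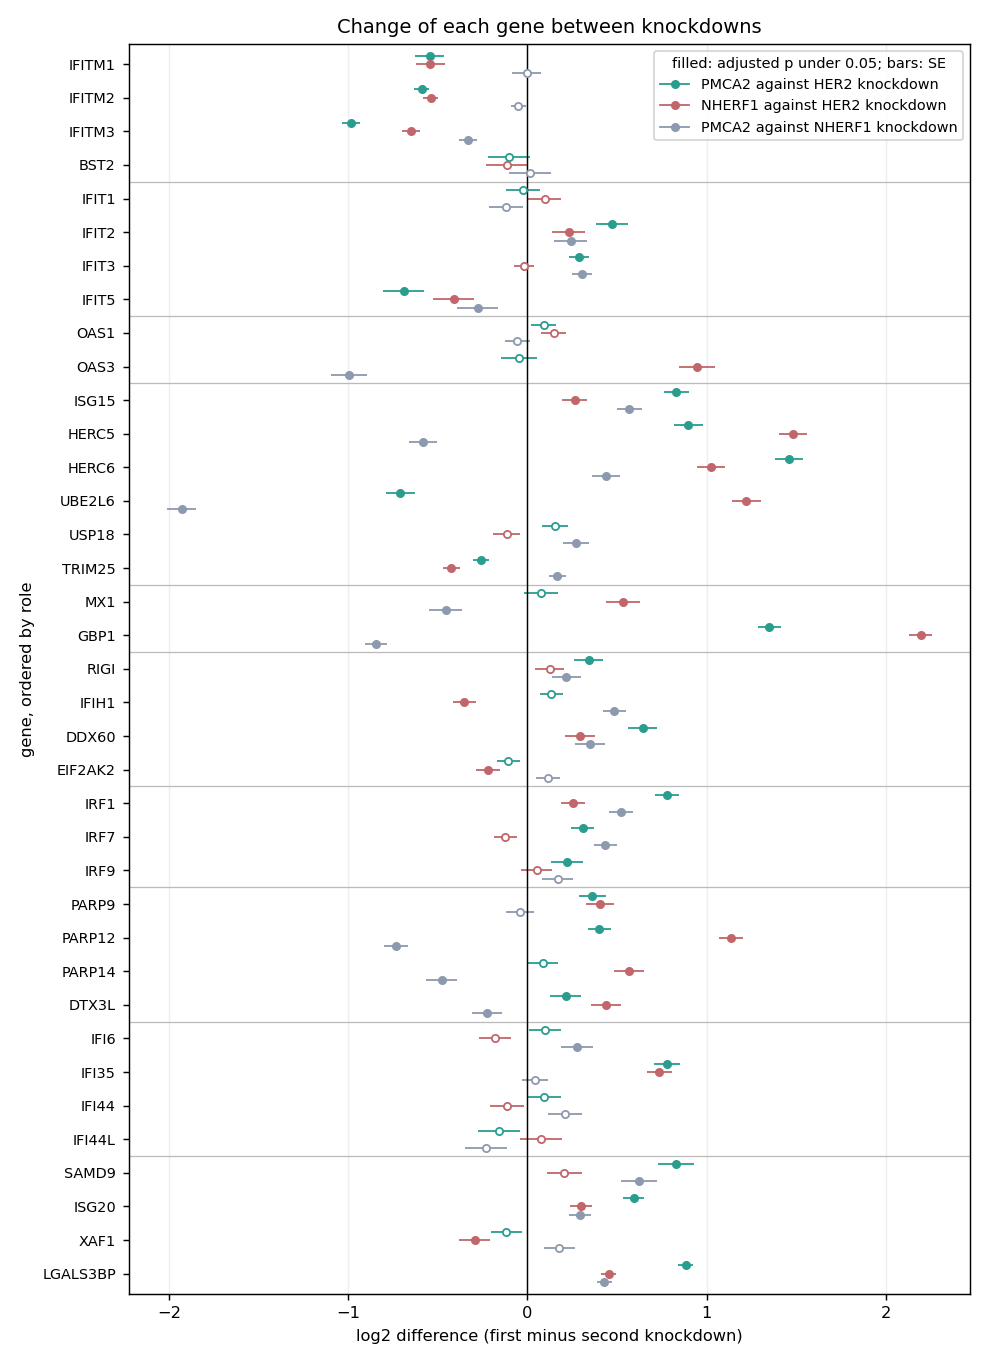
Log2 difference (x axis, first minus second knockdown) of the 37 genes (y axis, by role) between pairs of knockdowns; bars are SE and filled points have an adjusted p under 0.05. GBP1 reaches 2.19 for NHERF1 against HER2 knockdown and UBE2L6 -1.93 for PMCA2 against NHERF1 knockdown, while the IFITM genes lie left of 0 against HER2 knockdown.

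Genes that make or transmit the interferon signal formed a separate list of 52, of which 27 were tested. Of the 21 interferon genes with a probe, 15 passed the floor on no array, and the highest intensity was 110.2. IFNA21 alone was tested and was called in no comparison, being above the floor on 6 of 24 arrays. Over the whole list, 9 genes rose and 13 fell after PMCA2, 10 and 12 after NHERF1, and 9 and 12 after HER2 knockdown, which is 81.5%, 81.5% and 77.8% called, against the backgrounds of 66.8%, 66.6% and 67.1% given above.

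Among the 6 receptor chains, IFNLR1, the specific chain of the interferon lambda receptor, rose in all 3 knockdowns. IFNLR1 intensities were 99.8, 104 and 109 in control, 334, 344 and 358 after PMCA2, 173, 186 and 198 after NHERF1 and 280.01, 299 and 339.5 after HER2 knockdown. Control arrays straddled the floor and no knockdown array came near them, for increases of at least 10.2-fold, at least 4.02-fold and at least 8.44-fold (adjusted p = 2.44e-24, 1.8e-19 and 1.52e-23). IL10RB, its partner chain, fell, with log2 changes of -0.58, -0.41 and -1.04. Both chains of the type I receptor fell, IFNAR1 at -0.36, -0.57 and -0.76 and IFNAR2 at -0.66, -0.72 and -1.04. IFNGR1, of the interferon gamma receptor, rose after PMCA2 and NHERF1 knockdown and fell after HER2 knockdown (log2 0.33, 0.31 and -0.46). IFNGR2, its partner chain, had 472 to 485 in control and 167 to 202 after HER2 knockdown, and fell in all 3 with log2 changes of -0.98, -0.65 and -1.97.

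The inhibitors SOCS1, PIAS1 and PTPN2, which restrain JAK and STAT activity, rose in all 3 knockdowns. SOCS1 changed by 0.67, 0.54 and 0.93, PIAS1 by 0.92, 0.51 and 0.45, and PTPN2 by 0.66, 0.68 and 0.50. STAT3 fell, with log2 changes of -0.42, -1.12 and -0.77, as did the phosphatase PTPN11, at -0.78, -0.38 and -0.51. In the sensing arm, STING1, the adaptor of DNA sensing, had intensities of 139.7, 144 and 154 in control, 111, 128 and 133 after PMCA2, 149, 159 and 170.3 after NHERF1 and 202, 218 and 226 after HER2 knockdown. STING1 fell after PMCA2 knockdown (log2 -0.55 ± 0.095) and rose after NHERF1 (0.31 ± 0.095) and HER2 knockdown (1.10 ± 0.095). Its PMCA2 and HER2 knockdown arrays did not overlap control, and its NHERF1 knockdown arrays did. IRF3, which switches on interferon beta, rose by 0.29, 0.46 and 0.29, and IRF5 fell, by at least 1.67-fold after NHERF1 knockdown, its knockdown arrays lying close to the floor.

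**Figure D5:**
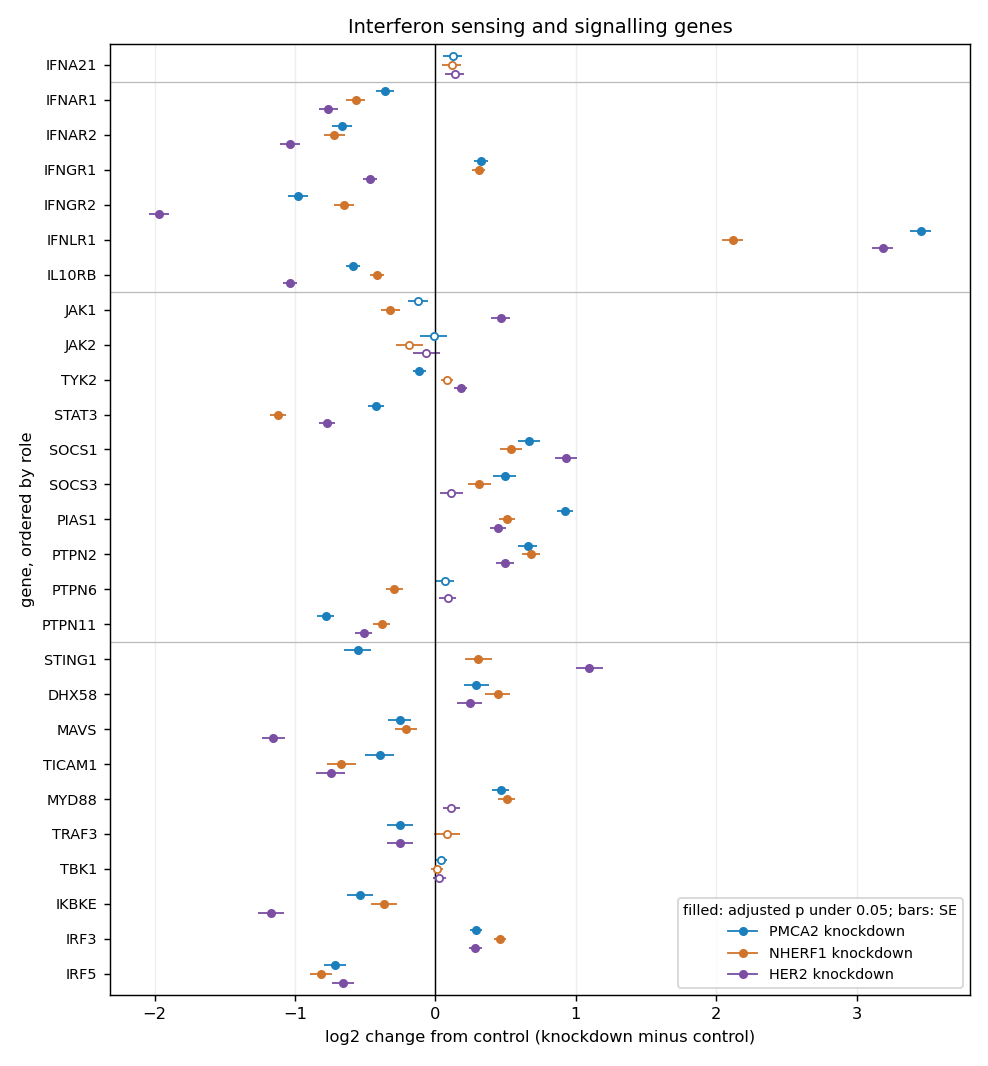
Log2 change from control (x axis, knockdown minus control) of the 27 tested genes for interferon ligands, receptors, kinases with their inhibitors, and sensing (y axis, in that order); bars are SE and filled points have an adjusted p under 0.05. Points for genes at or near the floor in control, such as IFNLR1 at the far right, are fitted values larger than the bounds given in the text. IFNGR2 is lowest after HER2 knockdown, at -1.97.

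A further 35 interferon-stimulated genes outside the 44 gave 21 tested, of which 9 rose and 6 fell after PMCA2 (71.4%), 10 and 8 after NHERF1 (85.7%) and 6 and 7 after HER2 knockdown (61.9%), where 66.8%, 66.6% and 67.1% of all genes were called. GBP2, a relative of GBP1, had intensities of 142, 148 and 152 in control, 539, 564 and 662 after PMCA2, 259, 262 and 275 after NHERF1 and 147, 159 and 168 after HER2 knockdown. Its PMCA2 knockdown arrays were highest, and its changes were 2.90 ± 0.066, 1.46 ± 0.066 and 0.21 ± 0.066, so GBP1 and GBP2 differed in which knockdown was highest. The HER2 call of GBP2 was lost on the first chip alone (adjusted p = 0.346). HELZ2, a helicase coactivator, rose by at least 6.66-fold, at least 4.83-fold and at least 2.02-fold from a control at the floor on 5 of 6 arrays. PLSCR1, a lipid scramblase with antiviral activity, rose by at least 2.41-fold after PMCA2 and at least 3.4-fold after NHERF1 knockdown, and passed the floor on no control or HER2 knockdown array. LAMP3, a lysosomal membrane protein, rose by at least 2.18-fold, at least 2.5-fold and at least 2.41-fold, and the peptidase LAP3 by 0.22, 0.65 and 0.24 on the log2 scale. RNF213, a giant ubiquitin ligase, had 582 to 643 in control and 159 to 177 after HER2 knockdown, and fell in all 3 with log2 changes of -2.06, -2.08 and -2.66. SP110, a nuclear body protein, also fell, with log2 changes of -1.18, -0.91 and -3.07. The chemokine CXCL10 changed by -0.59 and -0.63 after PMCA2 and NHERF1 knockdown and fell by at least 1.57-fold after HER2 knockdown, and the helicase ZNFX1 changed by -0.51, -0.15 and -0.40, of which the ZNFX1 call after NHERF1 knockdown was lost on the first chip alone (adjusted p = 0.135). On that chip alone, with 3 arrays per group, 11 in place of 18 of the 21 genes were called after NHERF1 knockdown. The share of all genes called on that chip alone is not given here, so this drop cannot be read as particular to the 21 genes.

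Set against the promoters, the tested genes with and without a match to the ISRE core as searched both moved in both directions. Of the 24 tested genes with the motif, 16 rose and 5 fell after PMCA2 (87.5% called), 15 and 5 after NHERF1 (83.3%), and 11 and 7 after HER2 knockdown (75%). Of the 9 with a promoter and no match, 6 rose and 1 fell (77.8%), 5 rose and 1 fell (66.7%), and 5 rose and 3 fell (88.9%). Of all genes, 66.8%, 66.6% and 67.1% were called, and the classes were not tested against each other.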

How the data were processed

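Gene expression was measured in 24 SKBR3 samples, 6 in each of 4 groups, on Illumina arrays. The labels give each sample's group and replicate number. The deposited values are linear probe intensities that the authors had normalized; from the values, sorted intensities differ by at most 0.406% between arrays at any rank and the smallest is 81.62, and the method is not given in the sources used here. A second deposited table was not used, because its 24 signal columns match no label.

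Background was corrected with normexp in limma 3.58.1 (R 4.3.3) against 437 olfactory receptor probes taken as silent, with an offset of 16, followed by quantile normalization and log2. The floor is an intensity of 106, the 95th percentile of those probes. The design had assumed scanner signals with detection p-values, which this table lacks. Of 47323 probes, 30113 have 1 gene symbol, 8 several and 17202 none, and 30074 matched the RefSeq gene table (GRCh38.p14), used for names. Of several probes of a gene, that with the highest mean was used, and the gene was tested where it passed the floor on at least 6 arrays. limma with empirical Bayes was fitted to all 24 arrays, with Benjamini-Hochberg adjustment over 12463 genes, and was tested on simulated data. The number of arrays limits the precision; the median SE of a difference was 0.069 on the log2 scale. No arrays held identical values.

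Same-numbered arrays of different groups showed little shared deviation (correlations from -0.0575 to 0.11, median 0.0155). Of these pairs, 4 of 36 were over 0.1, against 1 of 72 on the same chip with another number and 0 of 108 on other chips. The replicate numbers were not taken to pair samples, and a fit with them as a block was an alternative. All members are reported by role. Values by array are given for the gene with the smallest p of each role, for genes called with opposite signs, and for ISG15, USP18 and UBE2L6, chosen after their values were seen. In the signalling and further lists, the 3 genes with the smallest p in each direction and comparison are named; IFNAR1, IFNGR1 and IFNA21, to complete the receptors and the ligands, were added after their values were seen. The members, lists, rules and promoters shown were chosen with earlier results of these data known. Alternatives were the background correction and its offset, the filter, the choice of probe, the second normalization, blocks for chip or replicate number, each chip alone, and fits of 2 groups only.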

Additional observations from a re-analysis of the deposited data

Results flagged for a closer look

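In 7 of 148 groups of 6 arrays, 1 array lay far from the other 5, measured as its gap to the nearest array over the range of the group; chance alone gives about 1 in 20 groups. HERC5 replicate 5 of control had an intensity of 112 where the others had 93.45 to 97.3 (gap over range 0.88), the 1 control array on which HERC5 passed the floor. IFIT5 replicate 3 of control had 107.7 against 101.4 to 102.7 (0.813), and IFITM2 replicate 1 of control had 1215 against 1317 to 1347 (0.785). EIF2AK2 replicate 1 of HER2 knockdown had 565.1 against 444.2 to 478.4 (0.687), and ISG15 replicate 3 of HER2 knockdown had 181.1 against 198.1 to 207.3 (0.673). PARP9 replicate 1 of PMCA2 knockdown had 113.6 against 120.3 to 124 (0.673), and GBP1 replicate 4 of PMCA2 knockdown had 173.9 against 186.8 to 194.1 (0.66).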

How the results depend on the processing

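Over 11 alternatives, 1738 of 1804 recomputed changes of the 37 genes kept their direction and their call, 66 lost the call and 0 changed direction. Most losses came from the fits of 1 chip alone, with 19 on the first and 24 on the second chip, where a group has 3 arrays. Called genes numbered 27 to 32 (32 as reported) for PMCA2 knockdown with control, 26 to 30 (30) for NHERF1 knockdown and 25 to 30 (29) for HER2 knockdown. Counts of changes of at least 2-fold moved more. Without background correction they were 7 in place of 12 for PMCA2, 6 in place of 13 for NHERF1 and 7 in place of 10 for HER2 knockdown, each with control. In the same setting they were 0 in place of 2 for PMCA2 with HER2 knockdown and 2 in place of 5 for NHERF1 with HER2 knockdown. For PMCA2 with NHERF1 knockdown they were 0 in place of 1. With an offset of 50 they were 0 in place of 2 for PMCA2 with HER2 knockdown and 2 in place of 5 for NHERF1 with HER2 knockdown. The counts of 0 from limma were 0 at an unadjusted p under 0.05 as well, since no difference reached 2-fold. On the second chip alone PMCA2 with NHERF1 knockdown gave 2 in place of 1. With the replicate number as a block, called genes were 32, 30 and 29 against control and 24, 24 and 25 between knockdowns; IFIT2 in NHERF1 with HER2 knockdown was lost (adjusted p = 0.053), and 9 of 24 arrays correlated best with arrays of their own number. For genes outside the 44, alternatives added after seeing the data left 680 of 682 changes with the same call. Intensity close to background limits the members near the floor, for which only bounds are given.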
